A study of Homo sapiens with 6 samples.

Results

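RNA-Seq values of SPINK1, TSPAN8 and 6 further gastrointestinal lineage genes, HNF4A, HNF4G, TFF1, TFF3, LGALS4 and MUC13, were compared between parental C4-2B cells and a C4-2B subline resistant to enzalutamide. The 8 genes were found by symbol among the 58024 genes of the deposited FPKM table (fragments per kilobase of transcript, scaled to library depth). SPINK1 and TSPAN8 were chosen by their very large increase in these same libraries, so their values are given as a description without a test. The other 6 genes were taken by role, as HNF regulators and genes of gut epithelium. Earlier results of these data were known when these 6 were chosen, so their tests are not independent of the choice. Averaged over the 6 libraries, all 8 reached the minimum of 0.1 FPKM and entered the fit.

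C4-2B is a human prostate cancer cell line, a castration resistant subline of LNCaP raised through xenografts in castrated mice, and enzalutamide is a second generation antiandrogen. The resistant cells (3 libraries, replicates 0, 1 and 2) had been passaged in enzalutamide that rose from 1 to 20 µM over a minimum of 6 months, with 5 µM for maintenance, as a population of surviving cells rather than a clone. Their RNA was taken under 10 µM enzalutamide. The parental cells (3 libraries, replicates 0, 1 and 2) were passaged beside them in DMSO, given as 1% in the series text and as a lower share in the methods of the study, and whether they also received enzalutamide before RNA extraction is not clear from the labels. Both groups grew in the same medium with serum, and nothing says that the 3 libraries of a group came from separate cultures, so p values may measure technical spread only. The libraries had an estimated 13300000 to 20200000 reads, at which 1 read on a transcript of 500 bases is worth 0.165 to 0.25 FPKM and 1 read on 2000 bases 0.0276 to 0.0417 FPKM. A value of 0 can also be a failed estimate in this table, since RPS29, a ribosomal protein gene that every cell uses, is listed at 0 in all 6 libraries.

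SPINK1 is a small secreted trypsin inhibitor of the Kazal type, made mainly by the exocrine pancreas and the gut, and TSPAN8 is a membrane protein of the tetraspanin family found on gut and liver epithelium. HNF4A and HNF4G are nuclear receptors that drive genes of liver, intestine and pancreas. In prostate cancer, HNF4G is known to switch on gut lineage genes, SPINK1 among them. TFF1 and TFF3 are trefoil peptides secreted with mucus, LGALS4 is a galectin of the intestinal lining, and MUC13 is a transmembrane mucin of the gut surface.

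Promoter sequences are shown for SPINK1 and TSPAN8, the 2 genes with the highest levels in resistant cells, and for MUC13, the gene whose window holds the short HNF4 motif that was searched for. RefSeq entries on GRCh38.p14 were used for 5 of the 8 genes (SPINK1, TSPAN8, HNF4A, LGALS4 and MUC13). The promoter of HNF4G was not searched. Each line is the 250 bases before an annotated start, 5′ to 3′ on the gene's strand, and capitals mark CAAAGTCCA (an HNF4 core) on either strand, which appears as TGGACTTTG when read from the opposite strand. SPINK1 is chr5:147831672-147831921 on the minus strand, TSPAN8 is the second of its 2 annotated starts at chr12:71157810-71158059 on the minus strand, and MUC13 is chr3:124934752-124935001 on the minus strand.
SPINK1: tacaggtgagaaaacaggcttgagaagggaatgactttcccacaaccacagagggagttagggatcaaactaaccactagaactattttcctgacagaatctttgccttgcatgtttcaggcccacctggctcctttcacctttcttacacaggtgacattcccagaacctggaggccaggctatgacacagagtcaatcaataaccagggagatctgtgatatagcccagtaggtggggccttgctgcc
TSPAN8: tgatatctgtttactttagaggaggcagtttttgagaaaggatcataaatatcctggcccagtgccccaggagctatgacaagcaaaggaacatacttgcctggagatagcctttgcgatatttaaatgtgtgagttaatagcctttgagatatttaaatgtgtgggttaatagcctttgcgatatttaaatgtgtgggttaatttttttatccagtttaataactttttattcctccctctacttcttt
MUC13: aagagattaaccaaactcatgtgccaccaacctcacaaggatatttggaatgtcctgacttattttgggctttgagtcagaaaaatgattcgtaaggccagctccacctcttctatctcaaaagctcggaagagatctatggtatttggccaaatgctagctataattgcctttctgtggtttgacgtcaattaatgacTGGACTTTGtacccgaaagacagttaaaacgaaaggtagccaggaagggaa

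The MUC13 window held 1 CAAAGTCCA match, beginning at position -51 from the start site. Of 35116 RefSeq promoter windows of the same length, 0.325% held at least 1 such match. The motif was not found in the windows of SPINK1 and LGALS4 or of either start of TSPAN8 and HNF4A. The match is a run of letters in a reference sequence, and no binding was measured here.

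SPINK1 (ENSG00000164266, chr5:147824572-147831671, minus strand) went from hardly detected to one of the abundant messages of the resistant cells. Its FPKM level was 0, 0.965 and 0 in parental replicates 0, 1 and 2, against 546, 607 and 630 in resistant replicates 0, 1 and 2 (594 ± 43.5, SD, n = 3). The groups lay far apart and the whole parental level came from replicate 1, without which all parental libraries would be listed at 0, so no fold is given. Among protein coding genes, SPINK1 ranked 118, 117 and 110 by level in resistant replicates 0, 1 and 2. In bulk RNA, more cells with SPINK1 and more SPINK1 RNA per cell cannot be told apart, and the same holds for every gene below.

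TSPAN8 (ENSG00000127324, chr12:71125085-71441898, minus strand) was low but listed above 0 in every parental library. The parental FPKM levels were 0.344, 0.442 and 0.357 (0.381 ± 0.0535, SD, n = 3). In resistant replicates 0, 1 and 2 they were 339, 328 and 335 (334 ± 5.39, SD, n = 3), a ratio of means of 878. The spread within each group was small beside this gap, and leaving out each library in turn gave a log2 difference between 9.39 and 9.54. TSPAN8 ranked between 207 and 244 among protein coding genes in resistant cells and between 12452 and 12613 in parental cells.

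**Figure D1:**
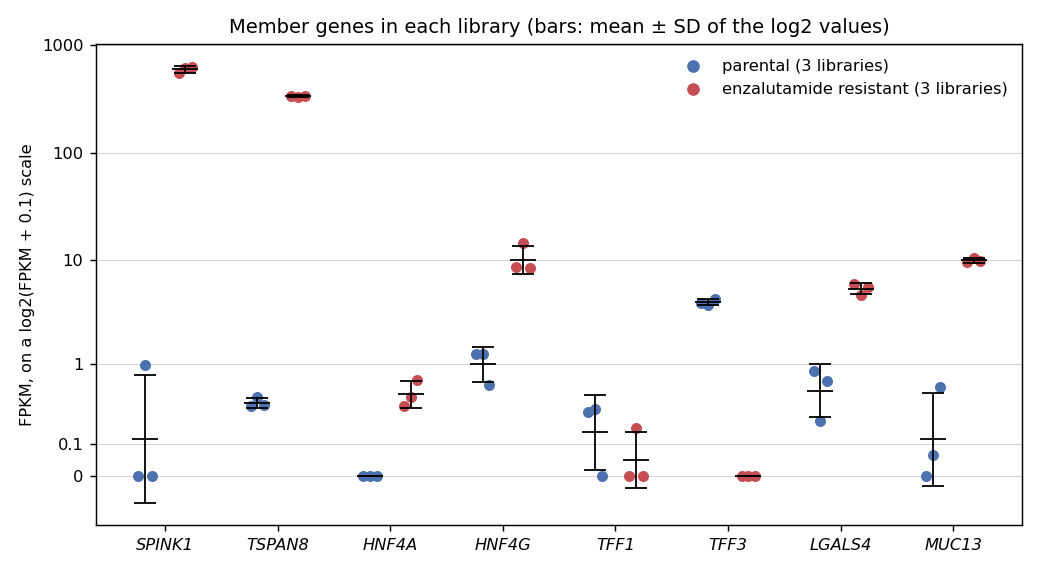
FPKM of the 8 genes in the 3 parental libraries (blue points) and the 3 enzalutamide resistant libraries (red points), on a log2(FPKM + 0.1) axis with ticks in FPKM; black bars are the mean ± SD of the log2 values. SPINK1 and TSPAN8 lie at 328 FPKM or more in all resistant libraries, TFF3 is at 0 there, and TFF1 overlaps between the groups.

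Of the 6 genes taken by role, 5 passed the test of resistant against parental cells (limma, Benjamini-Hochberg adjusted over 24468 genes, threshold 0.05), 4 of them upregulated and 1 downregulated. Over all genes tested, 44.4% passed, 22.1% as higher and 22.3% as lower, so a call by itself was common in this comparison. HNF4A, TFF1 and TFF3 had a mean below 0.1 FPKM in one group and entered only through the other. The values of the groups did not overlap for the same 5 genes, as for 54.8% of all genes tested. An exact permutation test over 3 against 3 libraries cannot go below p = 0.1, two-sided, and gave 0.1 for each of the 5 genes.

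Both HNF4 receptors were upregulated, at different levels. HNF4G (ENSG00000164749, chr8:75407914-75566834, plus strand) had FPKM levels of 1.25, 1.25 and 0.601 in parental replicates 0, 1 and 2 and of 8.65, 14.3 and 8.33 in resistant replicates. The means were 1.03 ± 0.373 and 10.4 ± 3.37 (SD, n = 3 each), a ratio of 10.1, and the log2(FPKM + 0.1) difference was 3.24 (SE 0.35, limma adjusted p = 0.000622). Resistant replicate 1 was the highest, and no resistant library reached down to the parental range. HNF4A (ENSG00000101076, chr20:44355699-44432845, plus strand) was listed at 0 in all parental libraries and had 0.348, 0.439 and 0.686 FPKM in resistant replicates 0, 1 and 2 (limma adjusted p = 0.00405). HNF4A thus stayed below 1 FPKM in every library. The miRNA gene MIR3646 shares 84 of the 10167 annotated exonic bases of HNF4A.

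Neither TFF1 nor TFF3 was higher in resistant cells. TFF3 (ENSG00000160180, chr21:42311667-42315409, minus strand) was downregulated, with 3.95, 3.78 and 4.28 FPKM in parental replicates 0, 1 and 2 (4 ± 0.257, SD, n = 3) and listed at 0 in all resistant libraries (limma adjusted p = 5e-05). TFF1 (ENSG00000160182, chr21:42362282-42366535, minus strand) was near the level of a single read in both groups, at 0.29, 0.321 and 0 FPKM in parental and 0, 0.181 and 0 FPKM in resistant replicates 0, 1 and 2. The TFF1 groups overlapped and the log2 difference of -0.85 (SE 0.78) did not pass (limma adjusted p = 0.407; exact permutation p = 0.4). TFF2, the trefoil gene that lies between them, had FPKM levels of 0.451, 0 and 0.423 in parental and 1.93, 0.846 and 2.07 in resistant replicates 0, 1 and 2. Its log2 difference was 2.39 (SE 0.77, limma adjusted p = 0.0444), which moved to 1.58 without parental replicate 1, and the call was lost without parental replicate 2 or any 1 of the resistant replicates and under 4 other settings, with adjusted p values from 0.0528 to 0.135.

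The genes of the epithelial surface were upregulated from low parental levels. LGALS4 (ENSG00000171747, chr19:38801671-38812945, minus strand) had 0.849, 0.224 and 0.664 FPKM in parental replicates 0, 1 and 2 and 5.96, 4.70 and 5.57 FPKM in resistant replicates. This was a log2 difference of 3.15 (SE 0.43, limma adjusted p = 0.00159) and a ratio of means of 9.34, with every resistant library above every parental one. MUC13 (ENSG00000173702, chr3:124905442-124953819, minus strand) had 0, 0.0563 and 0.57 FPKM in parental and 9.50, 10.4 and 9.83 FPKM in resistant replicates 0, 1 and 2. Its log2 difference was 5.52 (SE 0.69, limma adjusted p = 0.00111). Most of the parental MUC13 level came from replicate 2, and the log2 difference lay between 4.95 and 6.32 when each library was left out in turn.

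The levels in resistant cells fell into an order of SPINK1, TSPAN8, HNF4G and MUC13, LGALS4, HNF4A, TFF1 and TFF3 by mean FPKM, a scale that is per length of transcript. HNF4G and MUC13 did not differ beyond their spread (10.4 ± 3.37 and 9.91 ± 0.457 FPKM, SD, n = 3), while the ranges over libraries of every other neighbouring pair down to TFF1 did not overlap. In parental cells the order was different, with TFF3 first at 4 FPKM and HNF4G second at 1.03 FPKM, and from HNF4G down each gene overlapped its neighbour in the order.

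**Figure D2:**
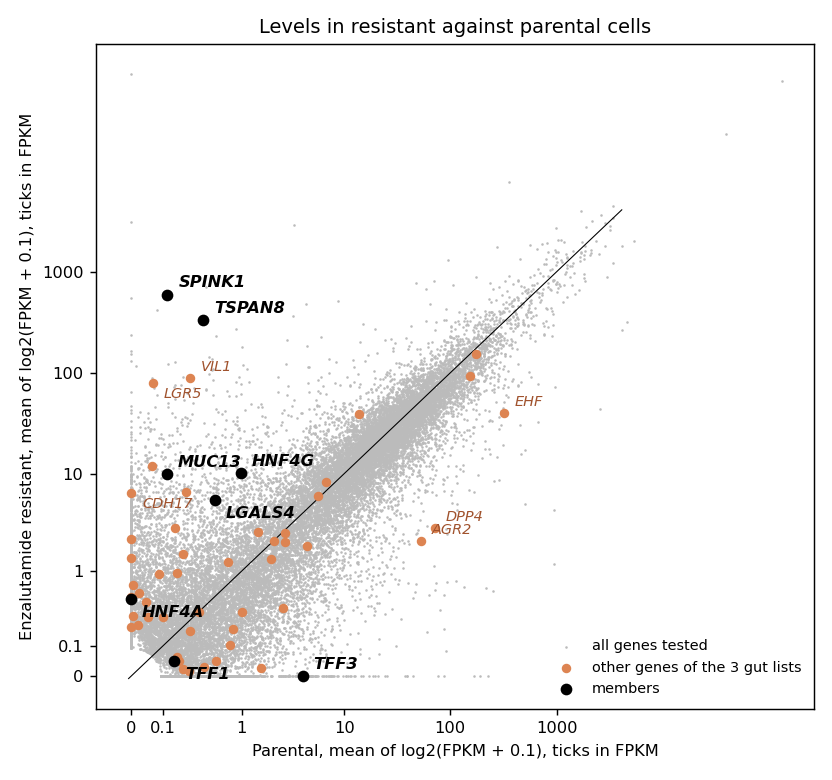
Mean log2(FPKM + 0.1) in resistant cells (vertical axis) against parental cells (horizontal axis), both with ticks in FPKM, for all 24468 genes tested (grey), the other tested genes of 3 gut lists (orange) and the 8 genes (black); the line marks equal levels. SPINK1, TSPAN8, MUC13, HNF4G and LGALS4 lie above the line, as do VIL1 and LGR5, and TFF3, DPP4, AGR2 and EHF lie below it.

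To see how far other genes of the gut moved, 3 lists with 102 genes in all were followed: transcription factors of gut and foregut, mucins and secreted proteins, and surface and absorptive genes. Without the 8 genes above, 50 of the 94 others were tested. Of these, 18 were upregulated, 11 were downregulated and 21 did not pass, with a median log2 difference of 0.19 against -0.05 over all genes tested. Over all genes tested, 22.1% passed as higher and 22.3% as lower, the shares to read beside this count and every list or neighbour count below. In 22 of the 50, the mean of one group was below 0.1 FPKM, so these entered only through the group in which they were high. The lists, too, were drawn up with earlier results of these data known, so the counts are a description. They are given in turn, and differences between the lists were not tested.

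Of the 21 transcription factors tested, 6 were upregulated (HNF4A and HNF4G among them), 6 were downregulated and 9 did not pass (median log2 difference -0.02). In 9 of the 21, the mean of one group was below 0.1 FPKM, so these entered only through the other. NR1H4, the bile acid receptor, was listed at 0 in all parental libraries and had 3.42, 1.65 and 1.77 FPKM in resistant ones (limma adjusted p = 0.000318). ELF3 and FOXA3, named after their values were seen, were upregulated too, with log2 differences of 1.5 and 1.98.

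The factors that fell included the most abundant one of parental cells. EHF, an ETS factor of epithelial cells, had 302, 297 and 364 FPKM in parental and 45.5, 35.7 and 40 FPKM in resistant replicates 0, 1 and 2 (log2 difference -2.99, SE 0.12, limma adjusted p = 1.8e-05). SPDEF, an ETS factor of prostate and goblet cells, fell by 0.71 on the log2 scale, from a mean of 154 to 94 FPKM. ISX, an intestinal homeobox factor, went from 1.58 to 0.0206 FPKM in the mean. PDX1, HHEX and ATOH1, named after their values were seen, were downregulated too and had means below 1 FPKM in both groups. FOXA1, the pioneer factor of prostate and gut, did not pass, with 157, 215 and 153 FPKM against 141, 167 and 158 FPKM (log2 difference -0.16, SE 0.15, limma adjusted p = 0.412), and neither did ONECUT2 (0.28, SE 0.32).

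Of the 16 mucins and secreted proteins tested, 5 were upregulated, 5 were downregulated (TFF3 among them) and 6 did not pass (median log2 difference -0.60). In 6 of the 16, the mean of one group was below 0.1 FPKM, so these entered only through the other. SPINK1, chosen for its increase, and MUC13 were 2 of the 5 upregulated genes, and the others, TFF2, REG4 and GCNT3, had means below 2 FPKM in resistant cells (REG4 and GCNT3 were named after their values were seen). AGR2, a disulfide isomerase needed for mucin folding, was among the downregulated genes, with 49.6, 45.6 and 64.5 FPKM in parental and 1.58, 2.71 and 2.07 FPKM in resistant replicates 0, 1 and 2 (log2 difference -4.60, SE 0.23, limma adjusted p = 3.07e-05). FCGBP, a mucus protein, fell by 2.48 on the log2 scale. The mucins MUC4 and MUC6, named after their values were seen, were also lower, while MUC1 (log2 difference -0.11, SE 0.56), MUC20 (-1.35, SE 0.61) and MUC5AC (-0.34, SE 0.41) did not pass. Summed over the list of 30 genes, the level went from 59.1 to 80 FPKM per parental library to 565 to 649 FPKM per resistant library, nearly all of it SPINK1.

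Of the 21 surface and absorptive genes tested, 13 were upregulated (TSPAN8, chosen for it, and LGALS4 among them), 1 was downregulated and 7 did not pass (median log2 difference 2.61). In 10 of the 21, LGR5 and CDH17 among them, the mean of one group was below 0.1 FPKM, so these entered only through the other. VIL1, which encodes the microvillus protein villin, had 0.264, 0.167 and 0.376 FPKM in parental and 84.3, 93.9 and 87.8 FPKM in resistant replicates 0, 1 and 2 (log2 difference 7.95, SE 0.23, limma adjusted p = 5.57e-06). LGR5, the receptor that marks intestinal stem cells, had 0.0427, 0.124 and 0.032 FPKM against 73.4, 81.9 and 82 FPKM (log2 difference 8.94, SE 0.24, limma adjusted p = 4.6e-06). CDH17, the liver and intestine cadherin, was listed at 0 in all parental libraries and had 6.29, 7.03 and 5.76 FPKM in resistant ones (limma adjusted p = 2.69e-05). Each of these genes was separated between the groups by far more than the spread of 3 libraries.

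The other upregulated surface and absorptive genes lay lower, and they were named after their values were seen. A1CF, a cofactor of APOB mRNA editing, had a log2 difference of 6.26 (SE 0.35) and a resistant mean of 12 FPKM. MYO1A, the brush border myosin, had a log2 difference of 4.33 (SE 0.75) and a resistant mean of 6.71 FPKM. USH1C, MTTP, SI, CLRN3, TM4SF5 and TM4SF20 also passed, with resistant means from 0.21 to 3.44 FPKM. DPP4, a peptidase of the brush border that prostate cells also express, was the gene that fell, from 66.8, 77.3 and 70.9 FPKM to 2.66, 2.77 and 3.02 FPKM (log2 difference -4.62, SE 0.11, limma adjusted p = 2.99e-06). PHGR1, ASCL2 and SLC26A3 did not pass, with log2 differences of 0.77 (SE 0.76), -0.53 (SE 0.36) and 0.73 (SE 0.37). The intestinal homeobox factor CDX1 was listed at 0 in all 6 libraries, and CDX2 had at most 0.13 FPKM in any library. Both were named after their values were seen. In all, 44 of the 102 list genes were not tested for a low mean, CDX1 and CDX2 among them.

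**Figure D3:**
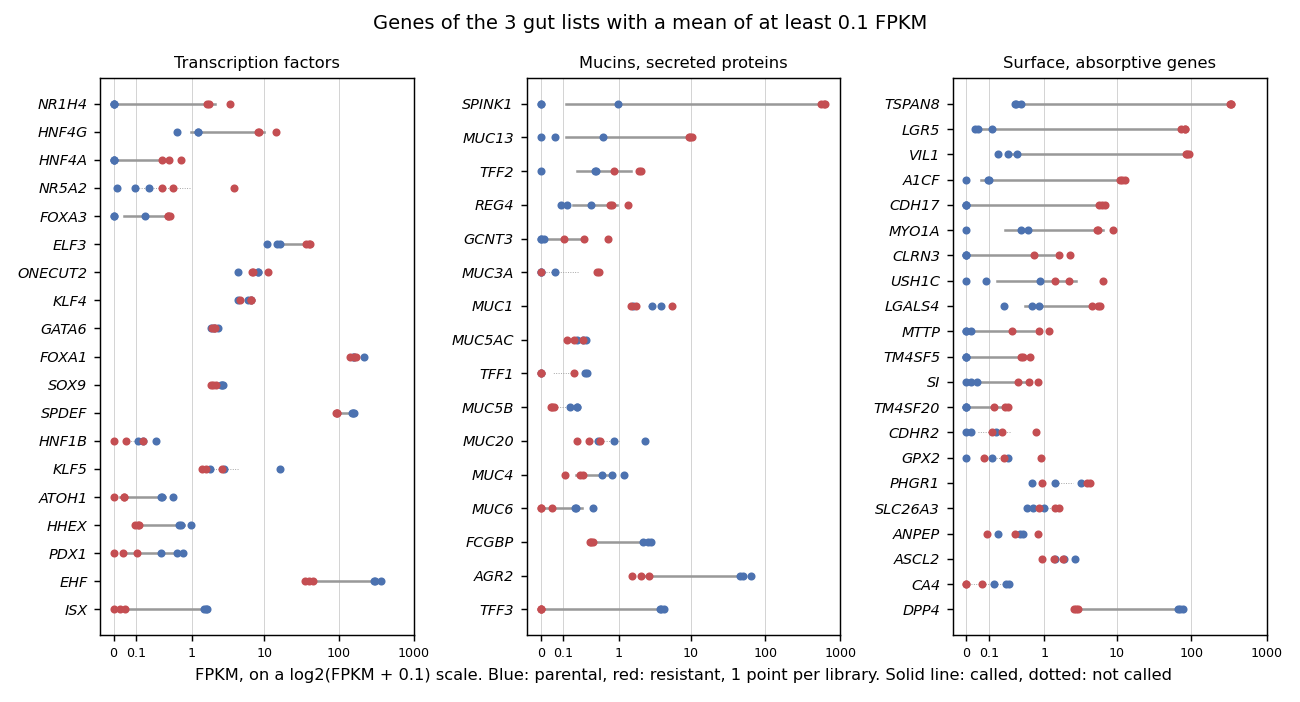
FPKM per library (blue, parental; red, resistant; 3 points each) on a log2(FPKM + 0.1) axis for 56 of the 58 tested genes of the 3 gut lists, ordered by the difference of the means; solid grey lines join genes past the threshold and dotted lines the others. Of the surface genes 13 of 21 passed as higher in resistant cells, and of the secreted proteins 5 of 16, beside 22.1% of all genes tested. SPINK1 and TSPAN8, chosen for their increase, are included. In 10 of the 21 and 6 of the 16, the mean of one group was below 0.1 FPKM. The difference between the lists was not tested.

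The families of SPINK1, TSPAN8 and LGALS4 did not move as one. Of the 3 Kazal type genes tested, SPINK1, chosen for its increase, and SPINK5 were higher and SPINK2 did not pass (log2 difference 1.03, SE 0.74). SPINK5, an inhibitor of skin kallikreins, had 0.0767, 0.195 and 0.237 FPKM in parental and 5.1, 4.39 and 3.33 FPKM in resistant replicates 0, 1 and 2 (log2 difference 4.05, SE 0.36, limma adjusted p = 0.000289). The 24 tetraspanins tested were split, with 9 higher, 9 lower and 6 not passing (median log2 difference 0.11); TSPAN8, chosen for its increase, is counted among the 9 higher. CD63, a tetraspanin of late endosomes and exosomes, was the most abundant and went from 361 to 911 FPKM in the mean (log2 difference 1.34, SE 0.10), and TSPAN4 rose by 1.18. TSPAN9 and TSPAN15 went down, by log2 differences of -3.36 (SE 0.20) and -2.22 (SE 0.11). CD81, TSPAN17 and TSPAN10 did not pass, with log2 differences of -0.12, 0.18 and -0.34.

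Of the 4 galectins tested, 3 were upregulated. LGALS1, a galectin of many cell types, went from 11, 5.86 and 10.4 FPKM to 505, 535 and 503 FPKM (log2 difference 5.86, SE 0.24, limma adjusted p = 1.67e-05), so that LGALS4 made up only a small part of the summed galectin level of resistant cells. LGALS8 had a log2 difference of 0.66 (SE 0.10), and LGALS3, at 0.529, 0 and 0.516 FPKM in parental libraries and listed at 0 in resistant ones, did not pass (limma adjusted p = 0.126, and 0.00875 without parental replicate 1).

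**Figure D4:**
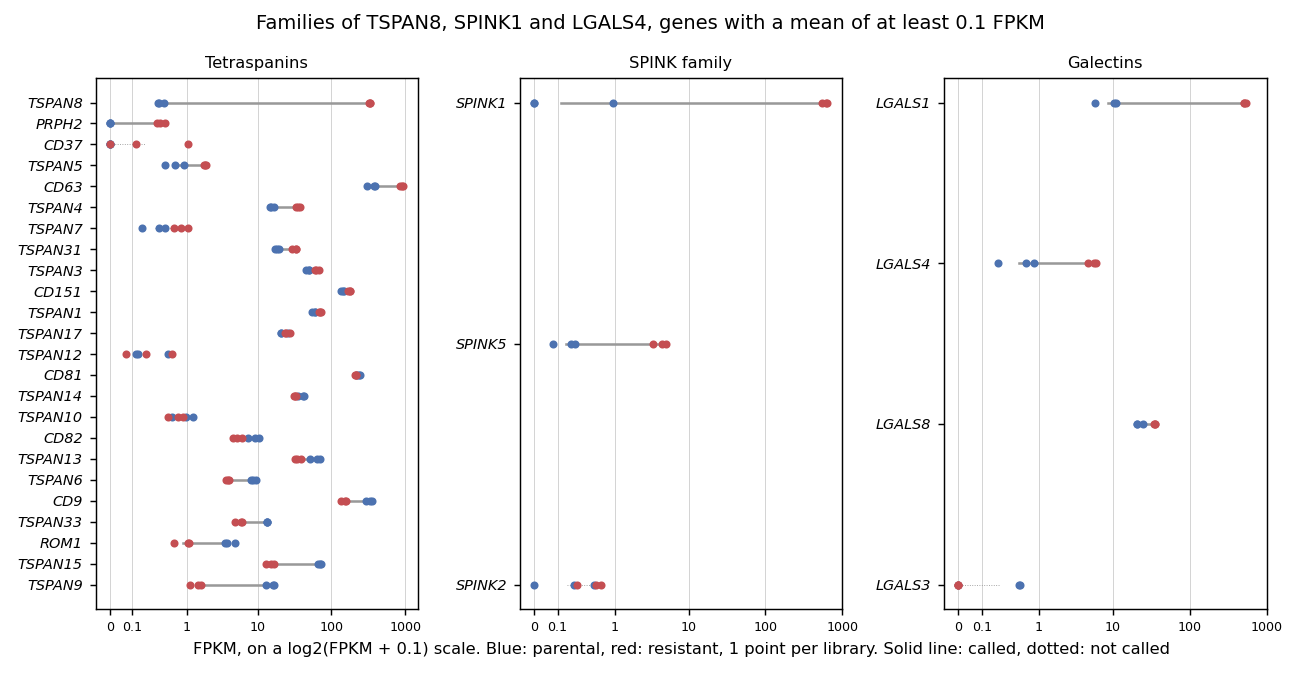
FPKM per library (blue, parental; red, resistant; 3 points each) on a log2(FPKM + 0.1) axis for the tested tetraspanins, Kazal type inhibitors and galectins, ordered by the difference of the means; solid lines join genes past the threshold and dotted lines the others. TSPAN8 and SPINK1 stand at the top of their families, a place fixed by their choice for a large increase, and LGALS1 lies further to the right than LGALS4 in resistant cells.

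Of the trypsins, the proteases that SPINK1 inhibits, PRSS1 and PRSS2 had low listed values. PRSS1 had at most 1.05 FPKM in any library and did not pass (log2 difference -1.24, SE 0.52, limma adjusted p = 0.1, and 0.0405 without parental replicate 0), and PRSS2 was listed at 0 in all 6 libraries; these are closely similar genes, so reads may be split between them. PRSS3, mesotrypsin, which is known to resist such inhibitors, had 0, 0.0874 and 0 FPKM in parental and 1.60, 10.1 and 1.43 FPKM in resistant replicates 0, 1 and 2 (log2 difference 4.60, SE 0.80, limma adjusted p = 0.0044). The high value was that of resistant replicate 1 alone. Of the 6 pancreatic acinar genes tested, PRSS3 was higher, GP2 and CEL were lower and 3 did not pass, and 5 of the 6 had a mean below 0.1 FPKM in one group and entered only through the other. The call of CEL was lost without parental replicate 0 or 1 or any 1 of the resistant replicates and under 6 other settings (limma adjusted p from 0.0509 to 0.136). EGFR, a receptor that SPINK1 has been described to bind, fell from 48.1, 45.9 and 49.6 FPKM to 12.6, 9.39 and 14.4 FPKM (log2 difference -1.99, SE 0.16, limma adjusted p = 0.000196).

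Liver genes, which share the HNF factors with the gut, were also followed. The list held 25 genes, and 11 were not tested for a low mean. SERPINA1, FGA, FGB, FGG and HP, named after their values were seen, were among these 11. Of the 14 tested, 6 were upregulated, 1 was downregulated and 7 did not pass (median log2 difference 0.74). In 6 of the 14, the mean of one group was below 0.1 FPKM, so these entered only through the other. ALB, serum albumin, had 0.357, 0 and 0.582 FPKM in parental and 57, 53.9 and 49.5 FPKM in resistant replicates 0, 1 and 2 (log2 difference 7.41, SE 0.69, limma adjusted p = 0.000322). AMBP and ASGR1, a secreted inhibitor precursor and a hepatocyte receptor, had log2 differences of 4.87 (SE 0.36) and 4.12 (SE 0.44), and APOH was listed at 0 in all parental libraries with a resistant mean of 1.22 FPKM. CPS1 and TFR2, named after their values were seen, had log2 differences of 0.96 and 0.88. TTR, transthyretin, went the other way (-2.55, SE 0.46), and TF, APOA1 and VTN did not pass, with log2 differences of -0.71, -1.32 and 0.59. Without parental replicate 1, APOA1 passed as lower (-1.84, limma adjusted p = 0.0193).

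Markers of prostate luminal cells were measured as a check of the cell type. All 15 luminal markers were tested, and 2 were higher, 10 were lower and 3 did not pass. KLK3, which encodes prostate specific antigen, went from 2489, 2321 and 2857 FPKM to 46.8, 43.5 and 41.8 FPKM (log2 difference -5.85, SE 0.09). HOXB13 did not pass (-0.02, SE 0.07), a value near 0 whose sign turned with the scaling of the libraries. The summed luminal level was 4632 to 5426 FPKM in parental and 1404 to 1522 FPKM in resistant libraries. KLK3, with means of 2556 FPKM in parental and 44 FPKM in resistant cells, was the largest part of the parental sum. TRPM8 and MSMB, named after their values were seen, were low in resistant cells, with means of 0.237 and 0.551 FPKM against 61 and 7.14 FPKM in parental cells. The blood and endothelial markers summed to 0.436 to 2.19 FPKM per library, with VWF lower and 4 of 5 tested not passing; the call of VWF was lost without any 1 of the libraries other than resistant replicate 1 and under 4 other settings (limma adjusted p from 0.0509 to 0.143). The fibroblast markers summed to 8.14 to 15.2 FPKM per library in both groups, with DCN and LUM higher (resistant means of 3.92 and 0.969 FPKM) and PDGFRB lower, and the pancreatic acinar markers summed to at most 11.1 FPKM. In 4 of the 5 blood and endothelial genes and 3 of the 6 fibroblast genes tested, the mean of one group was below 0.1 FPKM. The part of these markers in the results above was not tested.

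The genes that lie within 200 kb of the 8 genes were compared as well. Both tested genes near SPINK1 were upregulated, SPINK5 at 194012 bases and JAKMIP2 at 41797 bases (log2 difference 4.5, SE 0.42), but both stayed below 6 FPKM. Near TSPAN8, 2 of 4 tested genes were upregulated and 2 did not pass. One is LGR5, which overlaps the annotated span of TSPAN8 on the opposite strand without a shared exonic base. The other is the lncRNA RP11-578B16.1 at 6507 bases (log2 difference 4.86, SE 0.56). The overlap and this distance rest on the upper end of that span, at position 71441898. The windows before the RefSeq starts of TSPAN8 end at 71158059 and 71158249. LGR5 begins at 71439798 and the lncRNA at 71448405, so both lie more than 200 kb from the RefSeq starts. The lncRNA lies inside LGR5 on the same strand, so reads from these genes may be shared between them. Whether strand was used in the counting is not stated. JAKMIP2, LGR5 and RP11-578B16.1 had parental means below 0.1 FPKM (0.0444, 0.0661 and 0.0708), so these entered only through the resistant cells.

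The neighbours of the other genes did not move as a block. Near LGALS4, 8 of 21 tested genes were higher, 2 were lower and 11 did not pass (median log2 difference 1.09). They included FBXO17 (5.82, SE 0.33), CAPN12 (3.85, SE 0.73) and RINL (3.61, SE 0.34), beside ACTN4 with 0.61, and MRPS12 and EIF3K were the lower ones. Among the higher ones, FBXO17, FBXO27, CTB-186G2.1 and AC104534.2 had parental means below 0.1 FPKM and entered only through the resistant cells. The call of MRPS12 was lost without parental replicate 0 and under 2 other settings (limma adjusted p from 0.0589 to 0.0683) and that of EIF3K without parental replicate 0 or 2 or resistant replicate 0 or 2 and under 2 other settings (0.0831 to 0.095). Near HNF4A, 2 of 8 were higher and 4 lower, among the latter TTPAL (-1.72, SE 0.18) and ADA (-1.78, SE 0.18). The 2 higher genes were SERINC3 (0.29), whose call was lost without any 1 of the libraries other than resistant replicate 1 and under 2 other settings (limma adjusted p from 0.0527 to 0.107), and PKIG (0.52), lost without parental replicate 1 or 2 or resistant replicate 0 or 1 and under 6 other settings (0.0515 to 0.144). Near MUC13, ITGB5 was higher (1.02, SE 0.10), SLC12A8 lower (-0.97, SE 0.10) and 7 of 9 did not pass. Near HNF4G, the lncRNA CASC9 was higher (2.05, SE 0.61, limma adjusted p = 0.0345) and 1 of 2 did not pass; the call of CASC9 was lost without parental replicate 0 or 2 or resistant replicate 0 or 2 and under 4 other settings (0.0519 to 0.0992). Around TFF1 and TFF3, the genes ABCG1 (-2.40, SE 0.27) and SLC37A1 (-1.24, SE 0.19) were lower, in the same direction as TFF3 and opposite to TFF2.

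**Figure D5:**
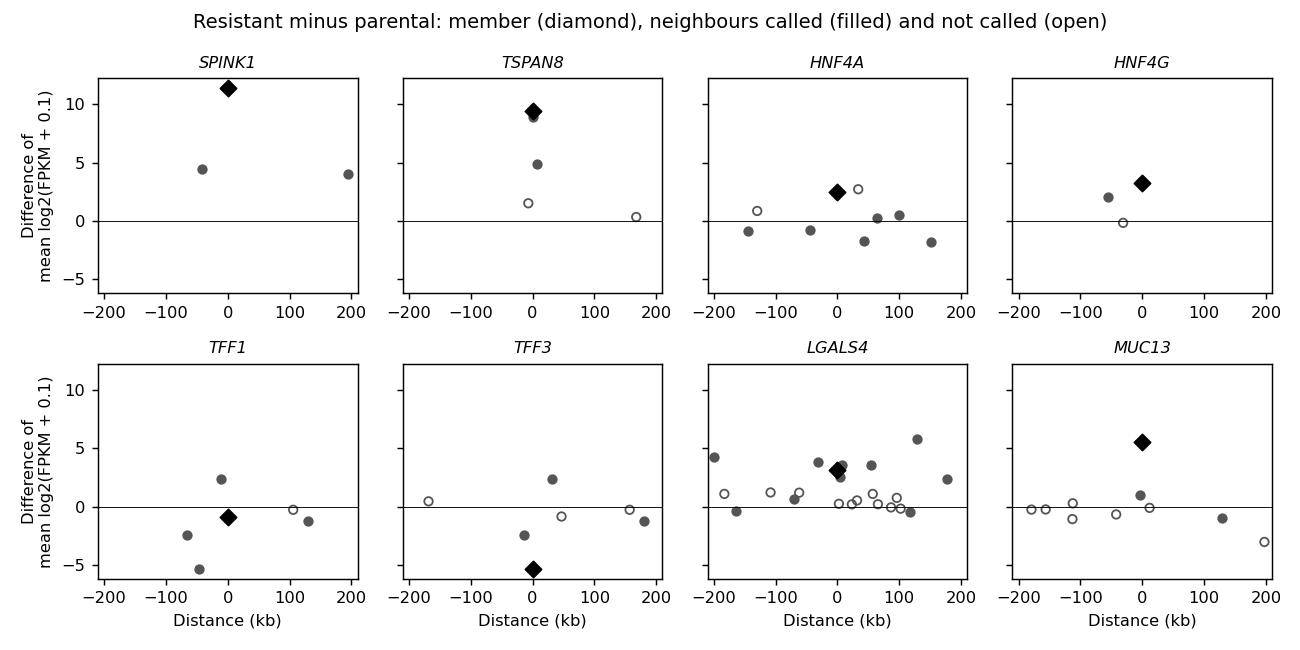
Difference of the mean log2(FPKM + 0.1), resistant minus parental (vertical axis), for each of the 8 genes (diamond) and the tested genes within 200 kb, at their distance in kb from the gene's ends (horizontal axis); filled points passed the threshold and open ones did not. The neighbours of SPINK1 and 2 of the 4 of TSPAN8 are higher, while those of HNF4A, MUC13 and the TFF genes lie on both sides of 0.

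The genes with the pattern most like SPINK1 over the 6 libraries, by Pearson correlation of log2(FPKM + 0.1) among 12368 protein coding genes that averaged 1 FPKM or more, were PCDHB11, TNS3, FBLL1, TPTE and TMEM65. Those most like TSPAN8 were SV2A, PKIB, FAM178B, CGA and HIST1H4D. The coefficients lay between 0.99937 and 0.9996 for SPINK1 and between 0.99979 and 0.9999 for TSPAN8, but 212 and 716 genes had one above 0.99, and the 6 points fall into 2 clusters of 3 libraries. CGA, the common subunit of the glycoprotein hormones, was listed at 0 in all parental libraries and had 5.87, 5.96 and 5.88 FPKM in resistant replicates 0, 1 and 2.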

How the data were processed

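RNA-Seq of 3 C4-2B parental and 3 C4-2B enzalutamide resistant libraries was analysed, grouped by sample title. Per its methods, the authors used TrimGalore 0.4.3 on single-end reads of 50 bp, STAR 2.5.3 with GRCh38 and GENCODE 25 for alignment, and Cufflinks 2.2.1 for quantification; the submitters' processing notes also name Trimmomatic 0.27, FastQC 0.10.1 and the mouse build mm10. The identifiers and positions in the table are human: 56980 of 58024 identifiers matched GENCODE 44, and 99.89% of these overlap the locus given. The deposited values were read as FPKM, made by the authors, and the table holds no counts. Depth was estimated from the steps of low values, with fragments of 200 bases assumed. Both an unstranded and a stranded library kit are named, and use of strand is not given in the sources used here. FPKM was transformed as log2(FPKM + 0.1), which understates changes of low genes.

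The filter was a mean FPKM of 0.1 or more, and the test was limma 3.58.1 (R 4.3.3, mean-variance trend), two-sided, with Benjamini-Hochberg adjustment at 0.05, and the fit was tested on simulated data. Single genes were also tested by exact permutation. No fold is given against a group listed at 0. Positions are from GENCODE 44 and promoters from RefSeq. The genes and the 11 gene lists were chosen with earlier results of these data known. Named were the 8 genes, per list up to 5 called genes with the smallest adjusted p and up to 3 most abundant genes not called, called neighbours within 200 kb, the 5 genes most like SPINK1 and TSPAN8, the trypsins, EGFR and prostate markers; genes outside this rule are marked as named after their values were seen. Some genes that the rule names are not reported here. Other pseudocounts (0.01 and 1 FPKM), filters, scalings, no trend, a replicate block and leaving out each library were tried. Replicate numbers did not pair the libraries. Python 3.11.15, numpy 2.4.6, pandas 2.3.3, scipy 1.17.1 and matplotlib 3.10.9 were used.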

Additional observations from a re-analysis of the deposited data

How the results depend on the processing

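Of HNF4A, HNF4G, TFF1, TFF3, LGALS4 and MUC13, 5 passed the threshold under 14 of the 15 other settings, and with a mean of at least 1 FPKM only 4 did, since HNF4A and TFF1 were no longer tested. With that filter the genes of the 3 gut lists that passed went from 36 to 20, and without the 8 genes from 18 to 9 higher and from 11 to 5 lower, because fewer genes were tested. Other settings left these counts within 1.5 times. The log2 difference of HOXB13 became 0.03 when scaled to summed protein coding FPKM, 0.16 with quantile normalization and 0.03 with median of ratios scaling, and ranged from -0.07 to 0.03 when each library was left out in turn. On leaving out each library, ONECUT2 ranged from -0.01 to 0.43, MUC1 from -0.68 to 0.23, VTN from -0.01 to 1.31 and COL3A1 from -0.04 to 1.73, and none of these 5 genes had passed. The cause was not tested. The log2 difference of TSPAN8, 9.45 with a pseudocount of 0.1 FPKM, was 7.92 with 1 FPKM and 9.75 with 0.01 FPKM. With the replicate block, 9463 genes passed against 10868 without it, and 30 genes of the gut lists against 36; deviations of libraries with the same number correlated at 0.00802, 0.0165 and -0.00301, so the libraries share only a number. No read counts are held, which limits statements on genes near 1 read.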

Other observations

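Some genes were listed at 0 in all 3 libraries of one group and clearly above it in the other. Among protein coding genes, 157 were listed at 0 in all parental libraries with a mean of at least 1 FPKM in resistant ones, against 17 in the reverse direction. CDH17, NR1H4, CLRN3 and APOH, with resistant means of 6.36, 2.28, 1.54 and 1.22 FPKM, belong to the former and TFF3 to the latter. A listed 0 can be a failed estimate here, as RPS29 shows, and the numbers were not tested.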
